A study of Mus musculus with 20 samples.

Results

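Huwe1, Herc1, Herc2, Mycbp2, Birc6, Ubr4, Nedd4 and Ube3a encode ubiquitin ligases of neurons, most of them among the longest proteins of the cell. Their RNAs were followed through a precipitation of the RNA-binding protein FMRP. The 8 genes were picked by name, and every feature (probe group) of the deposited array table that carries 1 of these names was taken, which gave 8 features, 1 per gene, of 24551 in all. The selection was made with the CLIP levels of wild-type and Fmr1 knockout neurons already known, above all those of Huwe1. The genotype difference in CLIP, and any quantity that contains it, is therefore described below without a test.

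Primary neurons came from cortices of C57Bl6 mouse embryos of day 17, were kept in culture for 8 days and were irradiated at 254 nm, which links proteins to the RNA they touch. The study used 10 cultures, 5 wild type (WT) and 5 Fmr1 knockout (KO), and the labels do not describe the knockout allele further. From every culture, total RNA (Input) and RNA from crosslinking and immunoprecipitation of FMRP (CLIP) were each put on 1 array, so that each of the 4 groups holds 5 arrays. Knockout neurons lack FMRP, so their CLIP arrays show what the procedure recovers without its target. Levels below are on the log2 scale of the RMA procedure (robust multi-array average), where a difference of 1 is a 2-fold change. RMA is meant to align the distributions of arrays, so CLIP values describe the makeup of a precipitate and not the amount of RNA in it. The deposited values were not fully aligned. A further quantile normalization moved the median CLIP minus Input of all features from −0.13 to −0.02 in KO. In WT it moved from −0.09 to −0.01.

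Ubiquitin is passed from an activating enzyme (E1) to a conjugating enzyme (E2) and from there, with the help of a ligase (E3), to a substrate protein that is often then degraded. HECT ligases carry the ubiquitin on a cysteine of their own before they hand it over. Huwe1, Herc1, Herc2, Nedd4 and Ube3a are of this kind. Mycbp2 is a RING ligase that relays ubiquitin through internal cysteines, Ubr4 recognises destabilising ends of proteins, and Birc6 joins the activity of an E2 and of an E3 in 1 protein. Nedd4 and Ube3a are HECT ligases of ordinary size, and Birc6 belongs to none of the HECT, RING-relay and UBR families. The messenger RNAs of several such ligases, Huwe1 among them, are known from earlier work as FMRP ligands in brain.

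Fmr1 itself checks the genotypes: it read 5.49 to 6.03 in WT Input and 3.98 to 4.34 in KO Input, with 6.20 to 6.80 in WT CLIP and 3.81 to 4.03 in KO CLIP. Array medians over all features lay between 5.30 and 5.44. Of 14 neuron markers 13 were matched to the table, and all 13 had a mean above 4 in every group, with a median gene level of 8.87 in both Inputs. Astrocyte markers were measured too (median gene level 6.06 in WT Input and 6.23 in KO Input), while the median of 8 microglia markers was 4.44 and 4.43. None of these lists held a feature that passed between genotypes in Input (0 calls in limma; at unadjusted p under 0.05, 1 astrocyte and 1 progenitor marker). In total RNA of a culture, fewer cells of a type and less RNA per cell cannot be told apart.

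The ligase RNAs moved together from array to array, which has to be known before groups are compared. In KO Input, array 1 was the highest of its group for 4 of the 8 RNAs and array 3 for the other 4. Relative to the KO Input mean, the 8 RNAs lay a median of 0.36 higher in array 1 and 0.43 higher in array 3. They lay 0.31 lower in array 2 and 0.37 lower in array 4. In KO CLIP, array 1 was the highest for 7 RNAs and array 4 the lowest for 7, at median deviations of 0.22 and −0.28. The other HECT ligases deviated the same way (0.34 in KO Input 1, 0.24 in KO Input 3 and −0.20 in KO CLIP 4), while the median over all features deviated by −0.02, −0.01 and 0.05 in these arrays. The wild-type groups were tighter, with array medians of the 8 RNAs from −0.19 to 0.13 in Input and from −0.13 to 0.13 in CLIP.

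**Figure D1:**
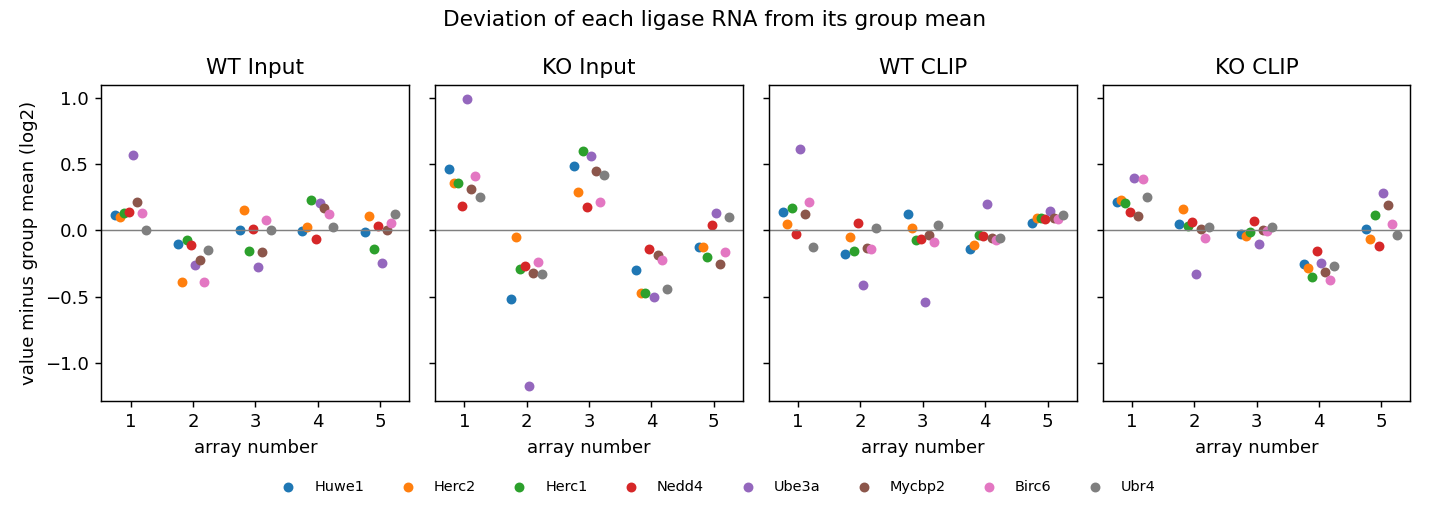
Each point is the log2 value of 1 ligase RNA in 1 array minus the mean of its group, by array number within the group (5 arrays each, numbers have no order). The 8 RNAs sit above 0 in KO Input 1 and 3 and below 0 in KO Input 2 and 4 and in KO CLIP 4, and Ube3a has the widest scatter.

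In total RNA the knockout left no detectable mark on the 8 ligases. Of the 8 features 0 passed (limma, adjusted p under 0.05 over all features), where 0.00407% of all features passed. At an unadjusted p under 0.05 it was again 0 of 8, where 3.86% of all features were. For none of the 8 did the KO and WT arrays fall apart, which 0.273% of all features showed with KO higher and 0.424% with KO lower. Differences (KO minus WT) ran from −0.12 for Ube3a to 0.27 for Herc2, 7 of 8 were above 0, and their median was 0.09 against 0.01 over all features. That slight lead depended on the arrays kept. Leaving out KO Input 2 or 4 alone, where these RNAs read low, raised the median to 0.18 or 0.19. KO Input 1 and 3 were left out together after their high values were seen, so every difference had to fall. The median then was −0.11, and still 0 of 8 passed. Huwe1 went from 0.22 to −0.09, Mycbp2 from 0.04 to −0.22 and Ube3a from −0.12 to −0.64.

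Huwe1, which marks the Myc family, the survival factor Mcl1 and many other proteins for degradation and whose gene is on chromosome X, had Input levels of 8.06, 7.85, 7.95, 7.95 and 7.94 in WT. In KO Input it read 8.63, 7.65, 8.66, 7.87 and 8.05. The KO arrays lie on both sides of the WT arrays, 2 of them well above and 1 below, and the difference of 0.22 (SE 0.19) did not pass (limma adjusted p = 1.00). Ube3a, the ligase lost in Angelman syndrome, was the least stable: it read 7.69, 6.86, 6.84, 7.33 and 6.88 in WT Input and 7.99, 5.82, 7.56, 6.49 and 7.13 in KO Input. Its SD of 0.86 in KO Input is the largest of the 32 group SDs. In neurons a long antisense RNA runs across Ube3a, and since the labels describe the labelled cDNA as double-stranded, signals of both strands cannot be told apart.

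**Figure D2:**
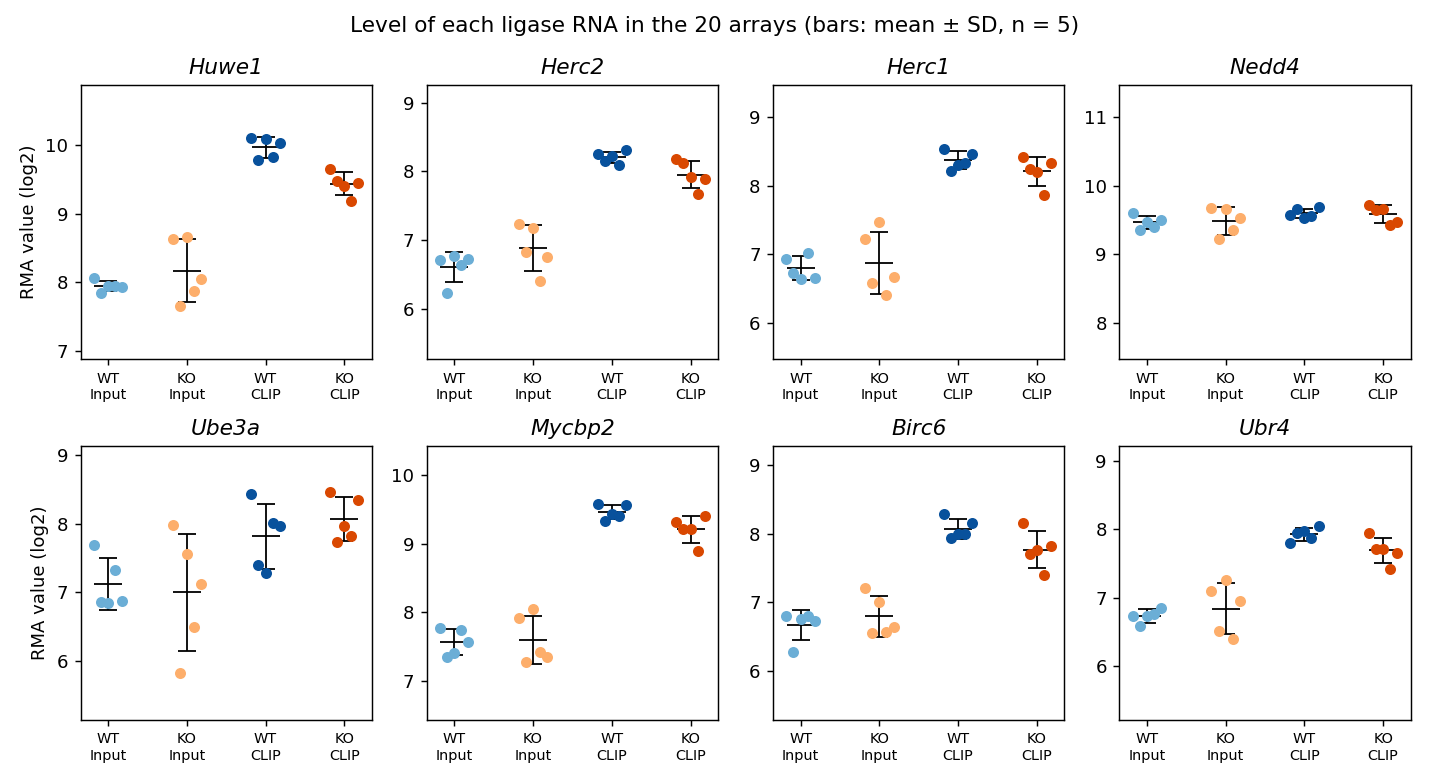
RMA values (log2) of the 8 ligase RNAs in each of the 20 arrays, with group mean ± SD (n = 5); every panel spans the same range of log2 units but starts at its own level, since levels of different genes are not comparable on arrays. For 6 genes both CLIP groups lie wholly above both Input groups; Nedd4 stays between 9.22 and 9.73 in all 20 arrays, and Ube3a groups overlap.

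Relative to other RNAs, most of these RNAs read far higher in CLIP than in Input, and they did so without FMRP. In KO neurons 7 of 8 features were higher in CLIP than in Input and 0 lower (limma, adjusted p under 0.05), where 16.2% of all features were higher. In WT neurons 6 of 8 were higher and 0 lower, where 17% of all features were higher. Calls in either direction made up 35.9% of all features in KO and 34.9% in WT. The median difference of the 8 was 1.07 in KO and 1.49 in WT, against −0.13 and −0.09 over all features. The members were proposed with these data in view, and the CLIP arrays are those of the genotype comparison. The counts here and the p-values of CLIP minus Input given below for the 8 are therefore not independent of that choice. They describe these RNAs and are no independent evidence.

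Mycbp2, which limits axon growth and promotes the breakdown of injured axons, rose most in KO. It read 7.91, 7.28, 8.05, 7.42 and 7.35 in KO Input and 9.32, 9.22, 9.21, 8.90 and 9.40 in KO CLIP, a difference of 1.61 (SE 0.14, limma adjusted p = 8.76e-08). In WT it read 7.78, 7.34, 7.40, 7.74 and 7.58 in Input and 9.59, 9.34, 9.43, 9.41 and 9.56 in CLIP, a difference of 1.90 (limma adjusted p = 4.65e-09). All CLIP arrays of Mycbp2 lie above all its Input arrays, and 99.1% of all features had a smaller difference in KO.

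Huwe1 rose most in WT. Its CLIP levels were 10.11, 9.79, 10.09, 9.82 and 10.03 in WT and 9.65, 9.49, 9.41, 9.18 and 9.45 in KO. Against the Inputs above, these are differences of 2.02 in WT (SE 0.16, 4.05-fold, limma adjusted p = 6.33e-09) and 1.26 in KO (SE 0.16, 2.40-fold, limma adjusted p = 2.93e-06). In WT 99.7% of all features had a smaller difference, and in KO 97.9%. The 4 group means follow the order WT CLIP, KO CLIP, KO Input, WT Input. The ranges of the first 3 groups are apart from each other, and those of the 2 Inputs overlap.

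Herc1 and Herc2 are the giants of the HECT family that carry domains like those of the nucleotide exchange factor RCC1. Herc1, whose mutation in the mouse kills Purkinje cells, read 6.93, 6.73, 6.64, 7.02 and 6.66 in WT Input and 8.54, 8.22, 8.30, 8.34 and 8.46 in WT CLIP. Its KO values were 7.23, 6.58, 7.47, 6.40 and 6.67 in Input and 8.42, 8.24, 8.20, 7.86 and 8.33 in CLIP. The rise was 1.58 in WT (SE 0.16, limma adjusted p = 2.67e-07) and 1.34 in KO (limma adjusted p = 2.87e-06), with no overlap between fractions in either genotype.

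Herc2, which lies on chromosome 7 like Ube3a and whose protein binds the Ube3a ligase, read 6.70, 6.22, 6.76, 6.63 and 6.72 in WT Input and 8.26, 8.16, 8.23, 8.10 and 8.31 in WT CLIP. In KO it read 7.24, 6.83, 7.17, 6.41 and 6.75 in Input and 8.18, 8.12, 7.92, 7.67 and 7.89 in CLIP. It rose by 1.60 in WT (SE 0.14, limma adjusted p = 3.74e-08) and by 1.08 in KO (limma adjusted p = 7.10e-06), again without overlap. The WT CLIP values of Herc2 lie close together, between 8.10 and 8.31.

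Birc6 and Ubr4 rose less. Birc6, an inhibitor of apoptosis (chromosome 17), read 6.80, 6.28, 6.76, 6.80 and 6.73 in WT Input and 8.29, 7.93, 7.99, 8.00 and 8.16 in WT CLIP. Its KO Input values were 7.21, 6.56, 7.01, 6.57 and 6.64, and its KO CLIP values 8.16, 7.71, 7.76, 7.39 and 7.82. The lowest KO CLIP array (7.39) lies just above the highest KO Input array (7.21), while WT fractions are far apart. The rise of Birc6 was 1.40 in WT (SE 0.15, limma adjusted p = 3.16e-07) and 0.97 in KO (limma adjusted p = 3.50e-05).

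Ubr4, a large binder of calmodulin and of protein ends (chromosome 4), read 6.74, 6.59, 6.73, 6.76 and 6.85 in WT Input and 7.80, 7.94, 7.97, 7.87 and 8.04 in WT CLIP. In KO it read 7.09, 6.51, 7.26, 6.40 and 6.95 in Input and 7.94, 7.72, 7.72, 7.42 and 7.66 in CLIP. Its rise of 1.19 in WT (SE 0.14, limma adjusted p = 8.34e-07) and 0.85 in KO (limma adjusted p = 6.20e-05) was the smallest of the 6 genes whose fractions did not overlap. That non-overlap, CLIP above Input, held for 6 of 8 members in each genotype, where 12.5% of all features showed it in WT and 10.3% in KO.

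Nedd4 and Ube3a, the HECT ligases of ordinary size, had fractions that overlapped. Nedd4, which ubiquitinates membrane proteins and is on chromosome 9 like Herc1, read 9.60, 9.35, 9.47, 9.40 and 9.50 in WT Input and 9.57, 9.66, 9.53, 9.56 and 9.69 in WT CLIP. In KO it read 9.68, 9.22, 9.67, 9.35 and 9.53 in Input and 9.73, 9.65, 9.65, 9.43 and 9.47 in CLIP. All 4 ranges overlap, and the differences of 0.14 in WT (SE 0.10, limma adjusted p = 0.302) and 0.10 in KO (limma adjusted p = 0.449) did not pass. After quantile normalization Nedd4 did pass, at 0.37 in WT (limma adjusted p = 8.96e-04) and 0.26 in KO (limma adjusted p = 0.0161). That scaling also moved the median of all features from −0.13 to −0.02 in KO.

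Ube3a read 8.44, 7.41, 7.28, 8.02 and 7.97 in WT CLIP and 8.46, 7.74, 7.97, 7.82 and 8.35 in KO CLIP. It rose in KO by 1.07 (SE 0.31, limma adjusted p = 0.0106), and the WT difference of 0.70 (SE 0.31) missed the threshold (limma adjusted p = 0.0839). Fractions overlap in both genotypes, yet within each of the 10 cultures CLIP was above Input, by 0.44 to 1.09 in WT and 0.40 to 1.92 in KO. With the culture as a block the WT difference passed (limma adjusted p = 0.00759). Ube3a is the 1 gene of the 8 whose KO CLIP mean (8.07) is above its WT CLIP mean (7.82), with wide overlap.

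The genotype difference within CLIP, known when the genes were picked, was positive for 7 of 8 RNAs. It was 0.53 for Huwe1 (SE 0.10), 0.30 for Birc6 (SE 0.13), 0.25 each for Mycbp2 and Herc2, 0.23 for Ubr4, 0.16 for Herc1, 0.02 for Nedd4 and −0.25 for Ube3a. The median was 0.24, against 0.02 over all features. Huwe1 is the 1 RNA of the 8 whose 5 WT values all lie above its 5 KO values (lowest WT 9.79, highest KO 9.65). Such a gap was found in 1.35% of all features, some further HECT ligases among them (below). Because of the selection nothing is read from this.

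The size of the difference moved when single arrays were left out. For Huwe1 it ran from 0.47 to 0.59 over the 10 refits, for Herc1 from 0.07 (without KO CLIP 4) to 0.21, and for Ube3a from −0.40 (without WT CLIP 1) to −0.11 (without WT CLIP 3). Without KO CLIP 4, the lowest array for 7 of the RNAs, the median of the 8 went from 0.24 to 0.17. Without KO CLIP 1, the highest array for 7 of them, it went to 0.29. Median centring and quantile normalization left medians of 0.23 and 0.21.

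Set against its own Input, each culture gives a recovery value, CLIP minus Input, which is a relative level and not an amount of RNA. For Huwe1 it was 2.04, 1.94, 2.14, 1.88 and 2.09 in the WT cultures and 1.01, 1.83, 0.76, 1.31 and 1.40 in the KO cultures. The WT values are tight and the KO values spread widely, and the highest KO culture almost touches the lowest WT culture. Herc2 (1.47 to 1.94 in WT, 0.74 to 1.29 in KO) and Birc6 (1.20 to 1.65 in WT, 0.75 to 1.19 in KO) also had WT values wholly above KO values, so that 3 of 8 did, where 0.766% of all features did.

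The difference of recoveries, WT minus KO, was 0.75 for Huwe1 (SE 0.22), 0.53 for Herc2 (SE 0.20), 0.43 for Birc6 (SE 0.21), 0.34 for Ubr4, 0.29 for Mycbp2 and 0.24 for Herc1. Nedd4 stood at 0.04 and Ube3a at −0.37. Their median was 0.32, against 0.03 over all features. Leaving out 1 array moved the smaller values most: Herc1 ran from 0.09 (without KO Input 3) to 0.36, Mycbp2 from 0.18 (without KO Input 3) to 0.37 and Ube3a from −0.62 (without KO Input 1) to −0.07 (without KO Input 2). Huwe1 ran from 0.63 to 0.88. Leaving out KO Input 2 or 4 alone, where these RNAs read low, raised the median from 0.32 to 0.40. KO Input 1 and 3 were left out together because these RNAs read high there, so the median had to fall. It went to 0.08. Huwe1 was then 0.44 (SE 0.16), Herc2 0.31, Birc6 0.22, Ubr4 0.12, Mycbp2 0.04, Herc1 −0.08 and Nedd4 −0.08, while Ube3a went to −0.89 (SE 0.38). Whether these arrays or the rest of the group stand for KO Input was not tested.

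**Figure D3:**
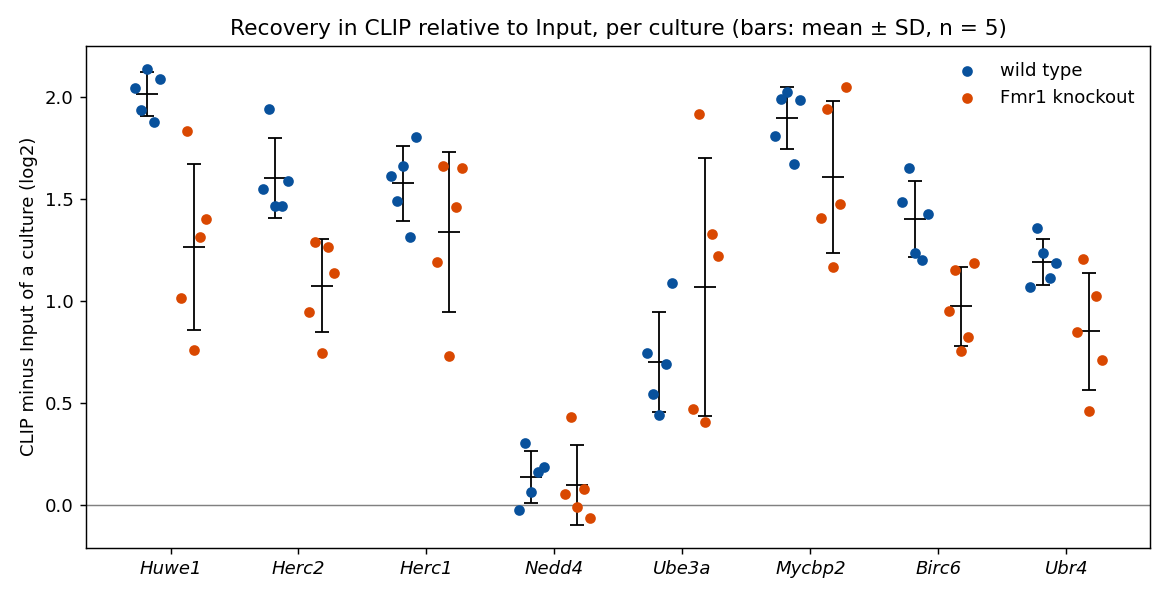
CLIP minus Input (log2) of each culture for the 8 ligase RNAs, WT and KO side by side, with mean ± SD (n = 5 cultures). Huwe1 lies between 1.88 and 2.14 in the WT cultures and between 0.76 and 1.83 in the KO cultures, while Nedd4 lies near 0 in both.

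The other genes of the ubiquitin pathway put the members in context. Many features of further HECT ligases read higher in CLIP as well. Of 26 features of 21 genes, 17 were higher and 0 lower in WT CLIP than in Input (limma). In KO 16 were higher and 0 lower. Their medians were 0.98 and 0.69. Hectd4 (listed as Gm15800), a very large HECT protein, rose by 1.87 in WT (SE 0.13, limma adjusted p = 2.83e-09) and 1.15 in KO at its strongest feature, and all 3 of its features passed in both. Ube3b rose by 1.42 in WT (limma adjusted p = 3.13e-07) and by 0.69 in KO. Smurf2, a ligase that limits TGF-beta signalling, rose by 1.50 in WT and 1.21 in KO at 1 of its 2 features.

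Of the UBR family, 6 of 9 features (6 genes) were higher and 0 lower in each genotype, with medians of 0.78 in WT and 0.71 in KO. Ubr2 rose by 1.15 in WT and 1.03 in KO at 1 of 2 features. Ubr3 rose by 1.19 in WT at the stronger of 2 features (0.70 at the other), and by 0.61 and 0.81 in KO. Fbxo11 rose by 0.89 in WT and 0.99 in KO. RING ligases were mixed: of 45 features of 29 genes, 19 were higher and 1 lower in WT and 14 higher and 0 lower in KO, with medians of 0.24 and 0.16. Rbbp6 rose by 2.40 in WT and 2.23 in KO at its strongest feature, and Rnf10 by 1.26 and 0.86. Trim67 rose by 1.25 in WT and 0.67 in KO, and Cnot4 by 0.74 in WT and 1.08 in KO.

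Among the enzymes that supply the ligases, more features were lower than higher in CLIP. Of 56 features of ubiquitin genes and of E1 and E2 enzymes (31 genes), 4 were higher and 28 lower in WT CLIP than in Input, and 2 higher and 21 lower in KO, where 17.9% and 19.7% of all features were lower. Medians were −0.37 in WT and −0.28 in KO. Several of these genes have many features, and with 1 mean value per gene 12 of the 31 genes were lower in WT and 8 in KO. Of all 21300 genes treated this way, 3474 were lower in WT and 3915 in KO. Ube2a fell by 1.21 in WT (SE 0.17, limma adjusted p = 9.12e-06) and by 0.64 in KO. Ube2n fell by 1.25 in WT (limma adjusted p = 0.00149), and neither of its 2 features passed in KO. Ube2l3, an E2 that works with HECT ligases, fell by 0.74 in KO at the lowest of the 4 features, of 5, that passed. In WT 4 of its features also passed, falling by up to 1.08. Ube2c fell by 0.72 in WT and 0.69 in KO, and Ube2w by 0.89 in WT and 0.66 in KO. Ube2w lies at 3.99 in KO CLIP, near the bottom of the scale, so its size is compressed. All 5 features of Rps27a, which encodes ubiquitin fused to a ribosomal protein, fell in WT by up to 1.20 and in KO by up to 0.69. Near-identical copies of this gene can share its signal, though. Without KO Input 1 and 3, 9 features of this group were higher and 16 lower in KO.

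Deubiquitinases, which remove ubiquitin, were mostly higher in CLIP. Of 34 features (31 genes), 23 were higher and 3 lower in WT and 21 higher and 3 lower in KO, with medians of 0.71 and 0.61. Usp7 rose by 1.53 in WT and 1.57 in KO. Usp24 rose by 1.49 and 1.44 at the stronger of 2 features (0.79 and 0.82 at the other). Otud4 rose by 1.38 in WT and 1.15 in KO, and Usp40 by 0.79 in WT and 1.23 in KO. Partners of the 8 ligases showed no common direction: of 19 features (18 genes), 3 were higher and 4 lower in WT and 3 higher and 3 lower in KO. Among them Skp1a fell by 0.70 in WT, and its fall of 0.27 in KO did not pass. Usp33 rose by 0.67 in each genotype. Calm2 rose by 0.56 in KO at 1 of 2 features, and neither feature passed in WT. Calm3 fell by 0.48 in WT and 0.33 in KO, but in KO it read 0.10 after quantile normalization.

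Genes of proteins reported as substrates gave 10 features higher and 2 lower of 26 (23 genes) in WT, and 11 higher and 2 lower in KO. The kinase gene Map3k12, whose protein Mycbp2 removes, rose by 1.64 in WT and 1.26 in KO at the stronger of 2 features (1.16 and 1.19 at the other). Arhgef7 rose by 1.27 in WT and 0.78 in KO. Gria1, a glutamate receptor subunit, rose by 1.03 in WT and 1.05 in KO. Tiam1, an activator of Rac that Huwe1 degrades, rose by 1.12 in WT and 0.98 in KO. In the genotype comparison of Input, 0 features of any of these 7 lists passed limma, with 0 to 3 per list at an unadjusted p under 0.05. Cell type markers were set between fractions in the same way. Of 9 astrocyte markers 0 were higher and 5 lower in WT CLIP than in Input, and 0 and 4 in KO. Of 8 microglia markers 1 was lower in WT and 3 in KO, where 17.9% and 19.7% of all features were. Of 13 neuron markers 4 were higher and 1 lower in WT, and 6 and 1 in KO. Of 8 features of progenitor markers 3 were higher in WT and 2 in KO, and 0 lower. Their part in the ligase values was not tested.

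**Figure D4:**
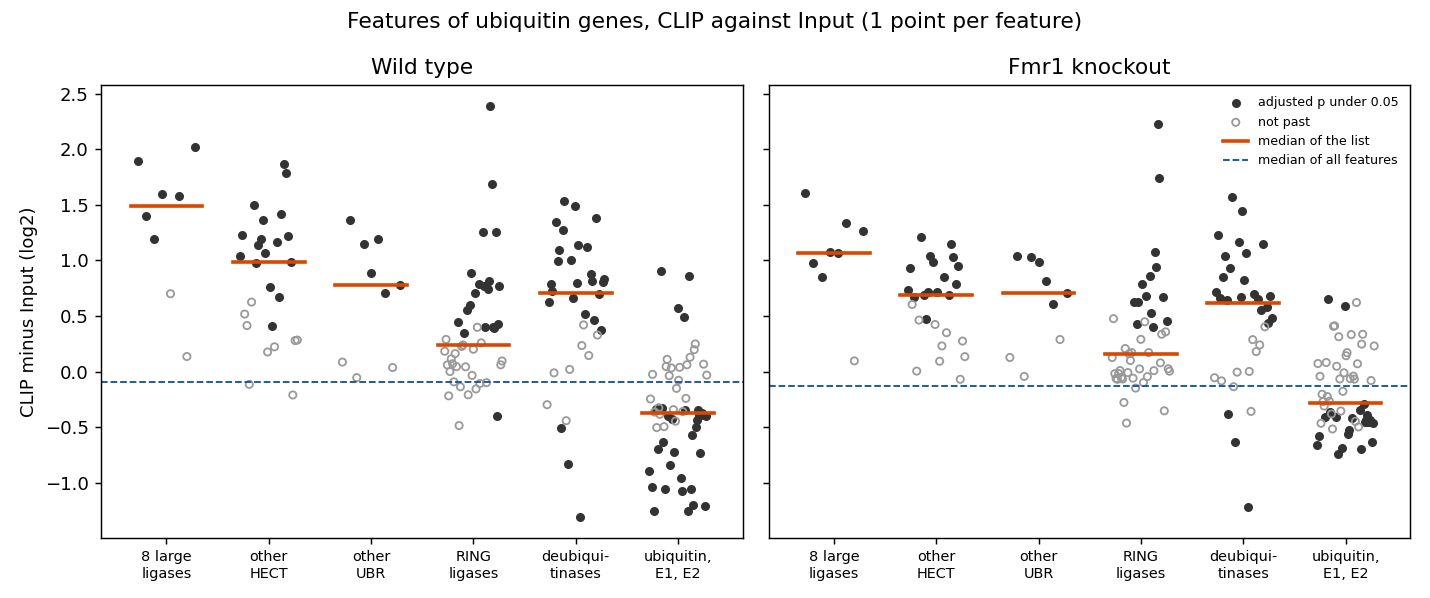
Difference between CLIP and Input (log2) of each feature in 6 groups of ubiquitin genes, in WT and KO neurons; filled points passed limma (adjusted p under 0.05), orange lines are list medians and the dashed line is the median of all features. Members (medians 1.49 and 1.07), HECT, UBR and deubiquitinase features lie mostly above 0, and ubiquitin, E1 and E2 features mostly below.

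The genotype difference in CLIP of these lists is given as a description. In the further HECT ligases 21 of 26 features were above 0, with a median of 0.15 and a range from −0.35 to 0.61. Of these 26 features 4 had all WT values above all KO values, where 1.35% of all features did. Hectd4 (Gm15800), at its strongest feature, stood 0.52 higher in WT, close to the 0.53 of Huwe1. In the UBR family 7 of 9 features were above 0, with a median of 0.06. For deubiquitinases the median was 0.05, for RING ligases 0.02 and for the ubiquitin, E1 and E2 group −0.12.

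The profile of Huwe1 over the 20 arrays was matched most closely by Hectd4 (Gm15800), with a Pearson r of 0.991 among 21299 other genes. The beta-spectrin gene Spnb2 (r = 0.991), the cytoskeletal linker Macf1 (r = 0.990), the histone acetyltransferase subunit Trrap (r = 0.990) and the kinase gene Cdc42bpb (r = 0.987) came next. All points share the 20 arrays, and the gap between fractions enters each r. How much of r it makes up was not tested. Of the other members Mycbp2 was the nearest to Huwe1 (r = 0.981, rank 15), then Birc6 (rank 23), Ubr4 (25), Herc1 (29) and Herc2 (36). Ube3a (r = 0.738, rank 2828) and Nedd4 (r = 0.610, rank 3840) were far from it.

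The nearest gene to Herc1 was Macf1 (r = 0.991), to Herc2 Cabin1 (0.985), to Mycbp2 the ankyrin gene Ank3 (0.996), to Birc6 Dopey1 (0.986) and to Ubr4 the growth kinase gene Mtor (0.990). Ube3a was nearest to the kinase gene Gsk3b (r = 0.970), which stood 0.06 lower in WT than in KO CLIP, and Nedd4 to Skiv2l2 (0.894).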

How the data were processed

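The authors deposited log2 values of 20 arrays after RMA, made with Affymetrix Expression Console 1.1 per the submitters' processing notes, and log2 ratio columns that equal CLIP minus Input of the same number and genotype (largest difference 0). No genome build is named for the array in these sources, and coordinates are left out. After 7 summary lines at the foot were left out, 24551 features remained; gene names are those of the table, and 4 listed genes were found under an older symbol through a RefSeq gene table (GRCm38.p6). Usp34, March6 and Rbfox3 were not matched.

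Differences were fitted by limma (version 3.58.1, under R 4.3.3; moderated, two-sided tests, Benjamini-Hochberg over all features, threshold 0.05): genotypes within Input or CLIP on 10 arrays, CLIP minus Input and the interaction on all 20 arrays with 4 group means. With 5 arrays a group, their number limits the precision. No detection calls are used here. The members, lists and tests were chosen with earlier results of these data known. Named from each list are up to 3 genes of largest difference among features that passed without overlap between groups. Not every gene this rule selects is reported here. The genes nearest to a member were ranked by Pearson r over 20 arrays, with 1 feature per gene, that of highest mean level. A planned summary of genes with long proteins was not made, since no protein table was used here. Fits were tested on simulated data. Python 3.11.15, pandas 2.3.3, numpy 2.4.6 and matplotlib 3.10.9 read tables and drew figures.

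CLIP and Input of the same number come from 1 culture, since 10 cultures are described and the deposited ratios set them against each other. Deviations from group means, correlated over all features, gave r from 0.06 to 0.26 in the WT pairs and from −0.13 to 0.45 in the KO pairs. The main fit of CLIP minus Input did not use this pairing. It took 1 residual spread per feature from the arrays of all groups together. Its p-values in WT therefore also carry the spread of the KO arrays. For Ube3a the SE was 0.31 in WT and 0.31 in KO. The WT difference of Ube3a had a limma adjusted p of 0.0839 in this fit and of 0.00759 with the culture as a fixed block. P-values between genotypes in Input rest on the spread between cultures.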

Additional observations from a re-analysis of the deposited data

Results flagged for a closer look

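Each of the 32 groups of 5 arrays (8 genes in 4 groups) was checked for an array far from the others by Dixon's criterion (0.71), which flags about 1 in 20 groups by chance. Array 2 of WT Input stood apart below the other 4 for Birc6 (6.28) and for Herc2 (6.22). The same array was the lowest of its group for 6 of the 8 ligases.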

How the results depend on the processing

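The alternatives were a replicate block, quantile normalization, median centring, a filter on features above 4 in at least 2 arrays, a prior that follows the mean, 1 value per gene and leaving out single arrays, and, chosen after seeing the data, leaving out KO Input 1 and 3. In Input 0 of 8 members passed under all of these, with median differences from −0.01 to 0.19 when single arrays were left out and −0.11 without KO Input 1 and 3. For CLIP minus Input in KO, 7 of 8 passed in all 20 refits without 1 array (medians 0.95 to 1.24), and 8 after quantile normalization (median 0.91). Without KO Input 1 and 3, again 7 passed and the median moved to 1.44. In WT, 6 to 7 passed, with medians from 1.40 to 1.53 without single arrays and 1.295 after quantile normalization. The seventh was Ube3a without KO Input 2 (limma adjusted p = 0.0389) or WT Input 1 (0.0451). It was Ube3a again with the culture as a block, fixed (limma adjusted p = 0.00759) or random (0.0475). After quantile normalization it was Nedd4 (limma adjusted p = 8.96e-04). The replicate block changed no other call of a member. Between genotypes the labels do not say whether cultures of the same number belong together. Deviations correlated across genotypes at r = 0.55 (Input) and 0.44 (CLIP) for number 1, and 0.36 and 0.19 for number 2. For numbers 3, 4 and 5 the r was negative in both fractions. With the number as a block 0 of 8 passed in Input. The described medians ran from 0.17 to 0.29 (CLIP, WT minus KO) and from 0.21 to 0.40 (difference of recoveries) without single arrays, and the latter was 0.08 without KO Input 1 and 3. Of features named from lists, Calm3 in KO turned to 0.10 after quantile normalization and was missed without KO CLIP 1 (limma adjusted p = 0.0793), and Ube2w in KO was missed after quantile normalization (0.102); the cause was not tested. List counts left a factor of 1.5 in 46 of 1008 comparisons, and in 44 of these the count was 5 or fewer. The count of all features called between genotypes in CLIP was 27, and 3 with the block, 14 after quantile normalization, 8 after centring and 12 with the prior following the mean. Without single arrays it ran from 4 (without WT CLIP 5) to 61 (without WT CLIP 2). With 5 arrays a group, their number limits what small differences can show.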
